A study of Homo sapiens with 9 samples.

Results

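A set of 10 genes that encode cartilage proteoglycans, their link proteins and leucine-rich matrix proteoglycans were followed in cranial neural crest cells (CNCCs) before and after removal of SOX9, the transcription factor that directs cartilage formation. The members, taken from a list of names, were ACAN, VCAN, HAPLN1, HAPLN3, MATN3, PRELP, BGN, DCN, LUM and FMOD, and all 10 were among the 18970 genes counted. They were chosen with earlier results of these data known. The CNCCs came from the established human embryonic stem cell line H9, edited so that both copies of SOX9 carried at their C terminus a degron (FKBP12-F36V), mNeonGreen and a V5 tag. dTAGV-1, a small molecule, brings a ubiquitin ligase to the degron so that the protein is destroyed. It was given at 500 nM for 3h or 24h, while the 0h group received the DMSO vehicle by the protocol. The sample labels list 500 nM dTAGV-1 with a time of 0h for that group. The labels give a relative SOX9 level of 100% for 0h samples and of 0% for those at 3h and 24h. All groups carried the tag, and no cells with untagged SOX9 were analysed here. The 9 samples were 3 cultures at each of 3 times, at passage 4 in medium with BMP2 and the Wnt pathway agonist CHIR-99021. The cultures are named by clone and differentiation batch: S9CC13_R6, S9CC47_R5 and S9CC47_R6. They represent 2 clones and 2 batches, so the spread between cultures mixes both.

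All samples were labelled for 2 h with 100 uM 4-thiouridine, a uridine analogue that is read as a T>C conversion after alkylation. For the 3h samples the label was added 1 h into the dTAGV-1 treatment, and for the 24h samples 22 h into it. Reads with a conversion (T>C reads) are therefore taken as RNA made during the labelling, and reads without one (unconverted reads) as mostly older RNA. Total reads are the sum of both. No sample went without the label, so T>C reads that arise without it were not measured. Libraries were made from transcript 3′ ends, so a count is one transcript end and does not grow with transcript length. Libraries held 16955633 to 28782678 total reads and 3130673 to 5475800 T>C reads. The transcript of SOX9 itself went from 9789 ± 258 normalized T>C reads before depletion to 21449 ± 1885 by 24h (SD, n = 3), but degradation of the protein leaves the transcript in place, so these values do not check the depletion. All 10 markers of cranial neural crest and its mesenchyme passed the filter on low counts.

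The hydrated matrix of cartilage is built on hyaluronan, a long sugar chain to which large proteoglycans such as aggrecan and versican attach through link proteins. Small leucine-rich proteoglycans, among them decorin, biglycan, lumican and fibromodulin, sit on collagen fibrils and control their assembly, and several also bind growth factors. Versican is abundant in embryonic mesenchyme before cartilage forms, whereas aggrecan and matrilin-3 mark differentiated cartilage.

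Of the small and large matrix proteoglycans, 4 rose by 24h of SOX9 depletion and 1 fell. In newly made RNA, 5 of the 7 members that could be tested were called at 24h against 0h. LUM, DCN, BGN and VCAN were higher, and PRELP was lower by a fitted 8.82-fold. The call of BGN was lost with the culture as a replicate block, and those of BGN and VCAN whenever 1 culture was left out. At 3h LUM alone was called, a call lost in 4 of the 9 other settings. One of them was the replicate block, under which DCN was called instead. HAPLN1 and HAPLN3, both link proteins, were called in no contrast of T>C or total reads, and ACAN, MATN3 and FMOD were nearly without reads. Among all 12037 genes tested in T>C reads, 4.98% were called at 24h (2.38% higher and 2.59% lower) and 1.79% at 3h. All 7 tested members had at least 1 CPM in all 9 libraries in both total and T>C reads, so none entered the test through 1 time only. In whole-culture RNA, fewer cells of a type and less RNA per cell cannot be told apart.

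Upstream sequences are shown for PRELP, the member that fell, and for HAPLN1, the only member with a match to either motif searched. They are also shown for BGN, called higher at 24h in the main fit but not with the culture as a replicate block. The start site of BGN is the same in RefSeq and GENCODE. Each sequence is the 250 bases before the RefSeq start site in GRCh38.p14, written 5′ to 3′ on the strand of the gene. PRELP lies on the plus strand (chr1:203475556-203475805), BGN on the plus strand (chrX:153494730-153494979) and HAPLN1 on the minus strand (chr5:83720856-83721105). The motifs were ACAATG and ACAAAG, 6-letter forms of the core that SOX proteins bind, searched on both strands without overlap between them, and capitals mark a match.
PRELP: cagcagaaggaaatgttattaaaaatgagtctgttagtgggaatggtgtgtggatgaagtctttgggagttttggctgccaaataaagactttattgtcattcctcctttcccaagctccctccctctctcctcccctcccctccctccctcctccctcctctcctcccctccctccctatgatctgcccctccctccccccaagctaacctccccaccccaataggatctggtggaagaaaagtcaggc
BGN: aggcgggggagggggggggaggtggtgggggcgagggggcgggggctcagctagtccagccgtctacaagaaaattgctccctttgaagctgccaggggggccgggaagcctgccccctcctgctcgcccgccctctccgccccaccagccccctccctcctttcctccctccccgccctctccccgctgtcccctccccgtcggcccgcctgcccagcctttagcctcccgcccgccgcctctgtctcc
HAPLN1: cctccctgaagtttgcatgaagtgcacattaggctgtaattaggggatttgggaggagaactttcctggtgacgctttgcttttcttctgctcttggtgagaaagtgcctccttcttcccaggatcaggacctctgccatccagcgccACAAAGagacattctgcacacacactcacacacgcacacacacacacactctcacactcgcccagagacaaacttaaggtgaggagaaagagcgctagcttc

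Of the 10 members, 8 had an entry among the RefSeq upstream sequences, and DCN and LUM were not among them. HAPLN1 held ACAAAG, starting 102 bases before the start site (offset -102), and the other 7 held neither motif in this window. ACAATG occurred in 9.45% and ACAAAG in 13.7% of all 27305 upstream windows of this length, and 21.4% held at least 1 of them. The windows differed in composition: BGN was 74.0% G and C, PRELP 52.8% and HAPLN1 50.8%.

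Levels before depletion spanned the whole range of expression. VCAN, which encodes the large hyaluronan-binding proteoglycan versican, had 1095 ± 77.1 total CPM (counts per library total) at 0h (SD, n = 3), higher than 99.0% of the tested genes. BGN (biglycan) had 466 ± 32.4, LUM (lumican) 191 ± 58.8 and DCN (decorin) 121 ± 11.1. Below these came HAPLN1 with 34.2 ± 4.07, PRELP with 18.5 ± 2.12 and HAPLN3 with 4.83 ± 1.26. The ranges of neighbours in this order did not overlap from VCAN down to HAPLN3. The 10 members together took 0.193% ± 0.00706 of total reads before depletion, 0.214% ± 0.0146 after 3h and 0.268% ± 0.0248 after 24h. VCAN alone made up 56.6% of the members' reads at 0h and 51.7% at 24h.

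The defining proteoglycan of cartilage was close to the detection limit. ACAN, which encodes aggrecan, had 4, 9 and 13 total reads at 0h (for S9CC13_R6, S9CC47_R5 and S9CC47_R6, the order of all values by culture), 10, 22 and 0 at 3h, and 3, 8 and 3 at 24h. The library without a read allows a level of up to 0.168 CPM, the 3 counts that a count of 0 leaves possible, and this covers counting error only. No library reached 1 total CPM for ACAN. MATN3, which encodes the cartilage adapter protein matrilin-3, had 8 reads in each 0h library, 4 to 5 at 3h and 6 to 13 at 24h. At 0h ACAN and MATN3 overlapped in level, with 0.390 ± 0.180 and 0.375 ± 0.0969 CPM. FMOD, which encodes the collagen-binding proteoglycan fibromodulin, had 0 to 3 reads per library, 15 in all. Of these 15 reads 9 were T>C reads, and these 9 were all the FMOD reads of S9CC13_R6 at 0h, S9CC13_R6 at 24h and S9CC47_R6 at 24h. ACAN, MATN3 and FMOD lay under the filter and were not tested, so no statement on a change in them was possible at this depth.

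PRELP, which encodes a leucine-rich repeat protein that links basement membranes to the collagen matrix, showed the largest change of the members. The gene lies at chr1:203475806-203491352 (GENCODE, hg38, plus strand). Normalized T>C reads, which are counts divided by DESeq2 size factors, were 90.6 in S9CC13_R6, 106 in S9CC47_R5 and 93.7 in S9CC47_R6 at 0h. They were 83.3, 52.0 and 42.0 at 3h in the same order, and 13.3, 6.23 and 9.63 at 24h. Each culture was lower at 3h than at 0h and lower again at 24h, and the 3 times did not overlap. At 24h against 0h the log2 fold change was -3.14 ± 0.41 (SE, DESeq2 adjusted p = 5.35e-12), and it was called under all 9 other settings tried, between -3.62 and -2.62. At 3h the log2 fold change of -0.87 ± 0.32 did not pass (DESeq2 adjusted p = 0.274), and only edgeR called it (adjusted p = 0.0976). Newly made PRELP RNA was also lower at 24h than at 3h, with a log2 fold change of -2.27 ± 0.45 (DESeq2 adjusted p = 1.30e-04), in a contrast that called 1.14% of all genes. That last call was lost without S9CC47_R5 (-1.92, adjusted p = 0.252). The T>C counts behind the 24h values were small, at 14, 6 and 13 reads.

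The whole PRELP pool fell as well. Normalized total reads were 413, 352 and 452 at 0h, 322, 270 and 254 at 3h, and 87.9, 51.4 and 69.1 at 24h, again without overlap between times. The log2 fold change was -0.55 ± 0.16 at 3h (DESeq2 adjusted p = 0.0357) and -2.47 ± 0.19 at 24h (adjusted p = 3.86e-36), the latter a fitted 5.55-fold fall. In total reads, 1 of the 7 members was called at 3h and 5 at 24h (LUM, DCN, BGN and VCAN higher, PRELP lower). Of all genes, 1.89% of the 11710 genes tested were called at 3h and 15.0% at 24h (7.11% higher and 7.85% lower). The 3h call of PRELP did not hold with the culture as a replicate block (-0.52, adjusted p = 0.262), without the surrogate variable or without any 1 culture, although each culture was lower. Between 3h and 24h total PRELP reads fell by 1.92 ± 0.20 on the log2 scale (DESeq2 adjusted p = 5.57e-18). Unconverted PRELP reads were at -0.48 ± 0.17 at 3h (adjusted p = 0.265) and fell by 2.29 ± 0.21 at 24h (adjusted p = 1.37e-25).

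LUM, which encodes the keratan sulfate proteoglycan lumican that spaces collagen fibrils, was the one member called in newly made RNA at 3h. Its locus is chr12:91102629-91111494 on the minus strand. Normalized T>C reads were 838, 1181 and 820 at 0h, 1008, 1270 and 1518 at 3h, and 1838, 1732 and 2313 at 24h. All 3 cultures were higher at each later time, the 24h libraries lay above all others, and the 0h and 3h libraries overlapped. The log2 fold change was 0.51 ± 0.11 at 3h (DESeq2 adjusted p = 2.18e-04) and 0.88 ± 0.11 at 24h (adjusted p = 3.05e-13, a fitted 1.85-fold). The 24h call held in all 9 other settings, between 0.84 and 1.07. The 3h call did not hold with the replicate block (0.41, adjusted p = 0.331), without the surrogate variable (0.43, adjusted p = 0.464), without S9CC13_R6 (0.48) or without S9CC47_R6 (0.18). Of the within-culture differences at 3h, that of S9CC47_R6 was the largest, 0.89 on the log2 scale, against 0.27 in S9CC13_R6 and 0.10 in S9CC47_R5.

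Total LUM reads were called at 24h and not at 3h. Normalized values were 3454, 5631 and 3425 at 0h, 3457, 4444 and 5863 at 3h, and 8908, 7511 and 10953 at 24h. S9CC47_R5 began higher than the other two cultures and changed least by 24h (log2 ratio 0.42 against 1.37 and 1.68). At 24h the log2 fold change was 0.93 ± 0.12 (DESeq2 adjusted p = 5.28e-13), whereas at 3h it was 0.25 ± 0.11 (adjusted p = 0.507). With the culture as a replicate block the 24h change was 1.14 ± 0.33 (DESeq2 adjusted p = 0.00934), with a wider error than in the main fit. The 24h call in total reads was lost without S9CC13_R6 (1.01, adjusted p = 0.503) and without S9CC47_R6 (0.90, adjusted p = 0.126). Both of these fits also lacked the surrogate variable, so the culture and the model changed together. The rise from 3h to 24h was 0.69 ± 0.13 in total reads (adjusted p = 7.35e-06), in a contrast with 5.39% of genes called, and was lost without S9CC13_R6 (0.84, adjusted p = 0.816). In T>C reads it was 0.37 ± 0.12 (adjusted p = 0.114) and was called with the replicate block (0.64, adjusted p = 0.00318).

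DCN, which encodes decorin, a chondroitin or dermatan sulfate proteoglycan that binds collagen and TGF-beta, lies next to LUM on the same strand (chr12:91140484-91183217), 28990 bp away with no protein-coding gene between them. Its normalized T>C reads were 675, 512 and 529 at 0h, 929, 549 and 892 at 3h, and 1304, 729 and 1081 at 24h. Each culture was higher at each later time, and S9CC47_R5 had the lowest value throughout and the smallest difference between 0h and 24h. The log2 fold change at 24h was 0.85 ± 0.14 (DESeq2 adjusted p = 3.35e-07, a fitted 1.80-fold), called in all 9 other settings between 0.73 and 1.08. At 3h it was 0.42 ± 0.14 and narrowly missed the threshold (adjusted p = 0.105), while the replicate block gave 0.44 (adjusted p = 0.0965).

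Total DCN reads were 2824, 2374 and 2743 at 0h, 3596, 2246 and 3720 at 3h, and 6118, 3650 and 5906 at 24h. The 24h libraries did not overlap those at 0h. The log2 fold change was 0.92 ± 0.10 at 24h (DESeq2 adjusted p = 2.33e-16) and was called in all 8 other settings, between 0.86 and 1.11. Most of this rise came after 3h, with a log2 fold change of 0.66 ± 0.11 from 3h to 24h (adjusted p = 3.38e-07). At 3h against 0h it was 0.25 ± 0.10 (adjusted p = 0.317). From 3h to 24h T>C reads of DCN gave 0.43 ± 0.15 (adjusted p = 0.225), called with the replicate block (0.39, adjusted p = 0.0916). The ratio of DCN to LUM, in normalized total reads, went from 0.680 ± 0.224 before depletion to 0.571 ± 0.104 by 24h (SD, n = 3), a difference within the spread between cultures.

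**Figure D1:**
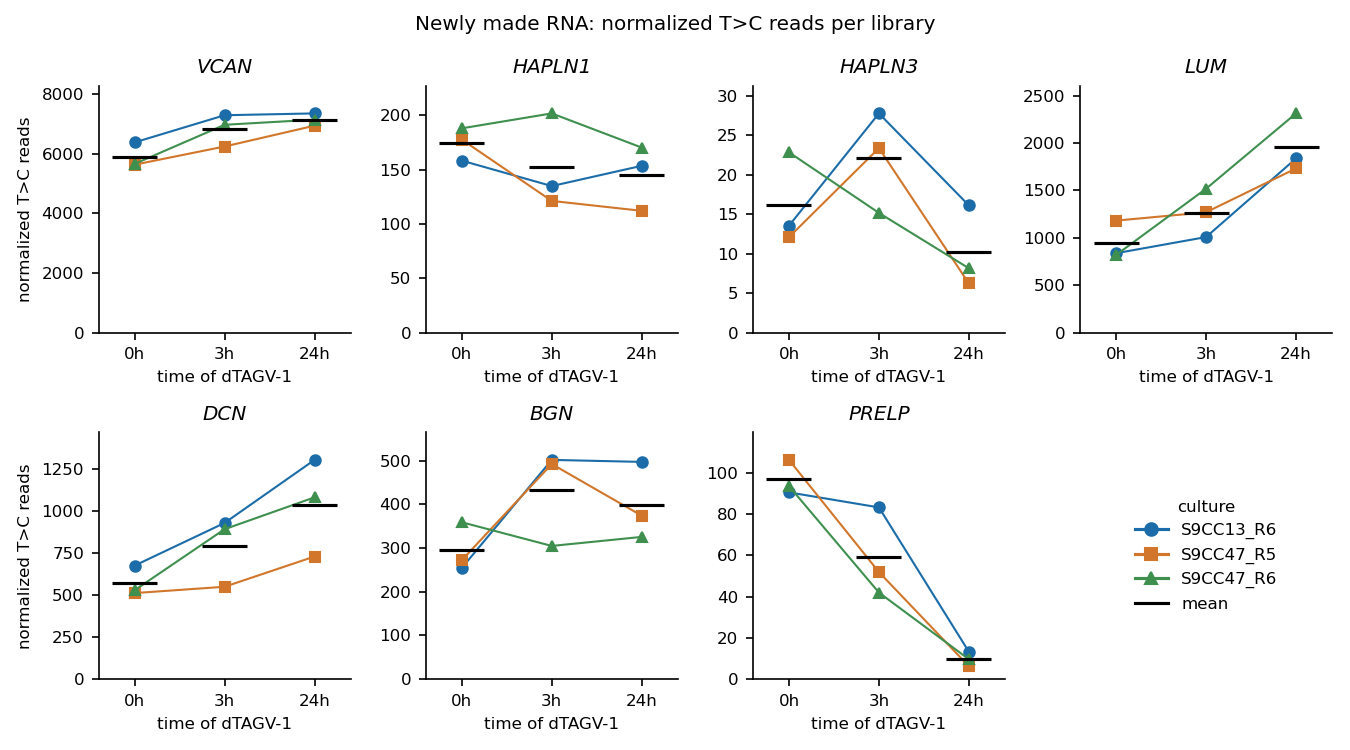
Normalized T>C reads of the 7 tested members (vertical axis, from 0) at 0h, 3h and 24h of dTAGV-1 (horizontal axis, not to scale). Points joined by a line are the libraries of 1 culture and black bars are means of 3 libraries. PRELP falls from 90.6 to 106 reads at 0h to 6.23 to 13.3 at 24h, LUM and DCN rise in all 3 cultures, and BGN is higher after depletion in 2 cultures and lower in S9CC47_R6.

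BGN, which encodes biglycan, the closest relative of decorin, gave a less even picture. The gene lies at chrX:153494980-153509546 on the plus strand. Normalized T>C reads were 254, 272 and 359 at 0h, 501, 492 and 305 at 3h, and 497, 374 and 325 at 24h. S9CC13_R6 and S9CC47_R5 were higher after depletion at both times, whereas S9CC47_R6 was lower at both. At 24h the log2 fold change was 0.58 ± 0.19 (DESeq2 adjusted p = 0.0487), but with the culture as a replicate block it was 0.40 and was not called (adjusted p = 0.323). The call was also lost without the surrogate variable (0.43, adjusted p = 0.314) and without any 1 culture (0.13 to 0.71). Total BGN reads were 10231, 9379 and 11016 at 0h, 13367, 11531 and 9099 at 3h, and 14666, 11598 and 10626 at 24h, and groups overlapped at all times. The log2 fold change in total reads was 0.39 ± 0.09 at 24h (adjusted p = 5.94e-04), against 0.25 with the replicate block (adjusted p = 0.197), 0.27 without the surrogate variable (adjusted p = 0.304) and 0.12 without S9CC13_R6 (adjusted p = 0.862). From 3h to 24h it was 0.33 ± 0.10 (adjusted p = 0.0298), and with the replicate block 0.12 (adjusted p = 0.607). That contrast was also lost without the surrogate variable (0.12), without S9CC13_R6 (0.11) and without S9CC47_R6 (0.08). The annotation places the opposite-strand gene HAUS7 across the start of BGN, outside its last exon, and whether the counting used strand is not given in the sources used here.

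VCAN, at chr5:83471618-83582303 on the plus strand, changed least among the called members. Its normalized T>C reads were 6380, 5631 and 5658 at 0h, 7290, 6241 and 6969 at 3h, and 7351, 6939 and 7141 at 24h. All 3 cultures were higher at both times than at 0h, and the 24h libraries did not overlap those at 0h. At 24h the log2 fold change was 0.30 ± 0.08 (DESeq2 adjusted p = 0.00425, a fitted 1.23-fold), and it kept its direction but not its call when any 1 culture was left out (0.25 to 0.32). Total reads were 25462, 23313 and 23026 at 0h and 30470, 28447 and 29155 at 24h. This difference was 0.31 ± 0.07 on the log2 scale (adjusted p = 4.03e-04), and it was not called without S9CC13_R6 (0.32, adjusted p = 0.320) or without S9CC47_R6 (0.27, adjusted p = 0.220). Both of these fits also lacked the surrogate variable. At 3h VCAN gave 0.20 ± 0.07 in T>C reads (adjusted p = 0.245). A lncRNA on the opposite strand, VCAN-AS1, overlaps the last exon of VCAN, and reads of both cannot be told apart without strand.

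The link proteins, which lock proteoglycans onto hyaluronan, did not pass the test. HAPLN1 lies next to VCAN, 55502 bp away on the opposite strand (chr5:83637805-83720855). Its normalized T>C reads at 0h were 158, 178 and 188. They were 135, 121 and 202 at 3h, and 154, 112 and 170 at 24h. The groups overlapped, and the 24h value was lower than the 0h value in each culture. The log2 fold change at 24h was -0.44 ± 0.20 (DESeq2 adjusted p = 0.268, 95% interval -0.83 to -0.052) in T>C reads and -0.20 ± 0.12 (adjusted p = 0.332) in total reads. In total reads 2 of the 3 cultures were higher at 24h than at 0h (log2 ratios 0.13, -0.52 and 0.27). HAPLN3, at chr15:88877294-88895597 and 1941 bp from ACAN, had 64 to 179 total reads and 6 to 30 T>C reads per library. Its log2 fold change at 24h was -0.51 ± 0.62 in T>C reads (adjusted p = 0.822, interval -1.73 to 0.71), an interval wide enough to hold a fall of over 2-fold as well as no change. S9CC47_R6 was lower at 3h and 24h than at 0h in HAPLN3 total reads (139, 81.3 and 64.1), whereas the other two cultures were higher at both times.

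**Figure D2:**
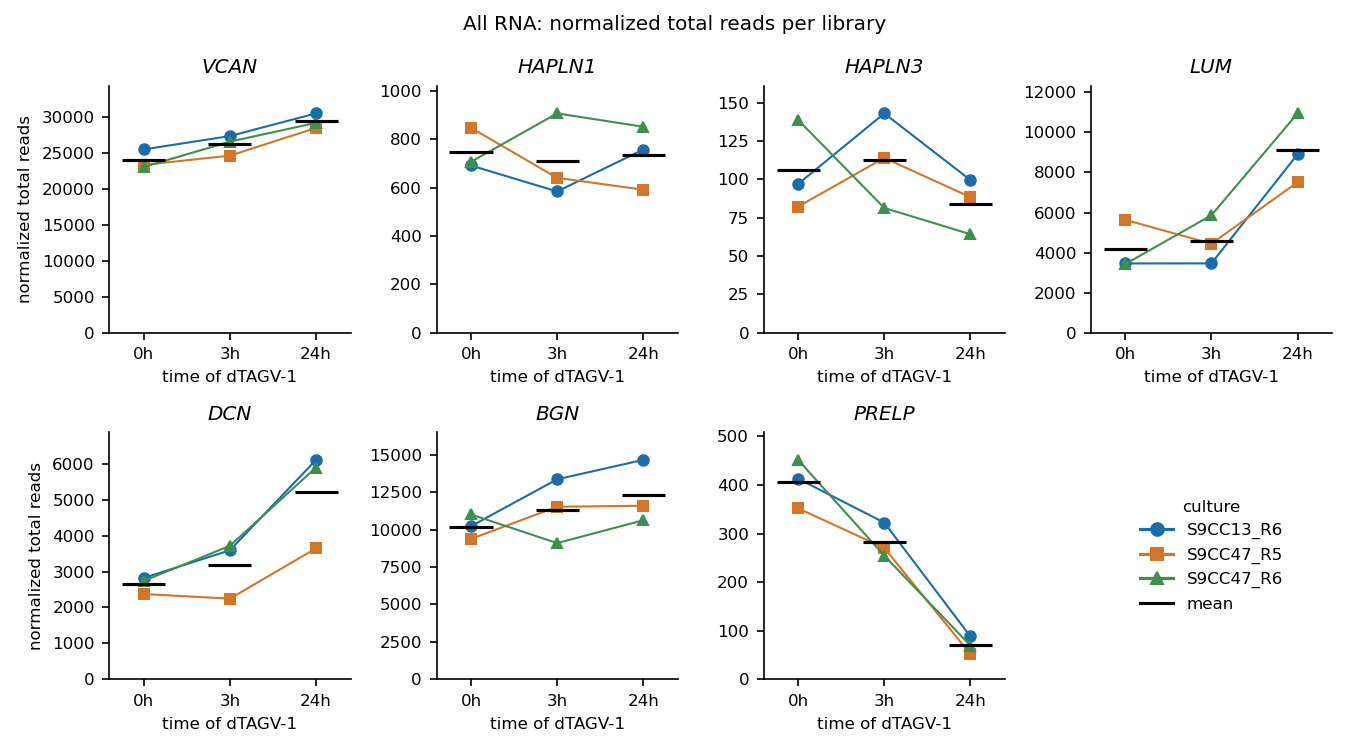
Normalized total reads of the 7 tested members (vertical axis, from 0) at 0h, 3h and 24h (horizontal axis, not to scale), drawn as for T>C reads. PRELP ends between 51.4 and 87.9 reads at 24h from 352 to 452 at 0h, LUM and DCN rise mainly between 3h and 24h, and HAPLN1 and HAPLN3 overlap at all times.

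New and older RNA of the same gene were then set side by side. Unconverted reads called the same 5 members at 24h (LUM, DCN, BGN, VCAN and PRELP, in the same directions), with 12.1% of 11529 genes called, and no member at 3h, when 1.10% were called. At 3h PRELP was the only member under an unadjusted 0.05 in unconverted reads, as were 865 genes. For LUM the 3h change was 0.51 ± 0.11 in T>C reads and 0.15 ± 0.19 in unconverted reads (DESeq2 adjusted p = 0.942). At 24h it was 0.88 ± 0.11 and 0.95 ± 0.20. PRELP had -3.14 ± 0.41 in T>C reads and -2.29 ± 0.21 in unconverted reads at 24h.

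The test of the difference is the change in the T>C share, the percent of a gene's reads with a conversion, relative to all genes. Of the 7 members, 1 was called at 3h and none at 24h, against 0.343% and 0.0176% of 11361 genes. The called member was BGN. Its share was higher at 3h in all 3 cultures, but in S9CC47_R6 it went only from 3.31% to 3.38%. The difference between the changes in T>C and in unconverted reads was 0.46 ± 0.12 on the log2 scale (DESeq2 adjusted p = 0.0657). That call was lost without S9CC13_R6 (0.35) and without S9CC47_R5 (0.36). LUM at 3h gave 0.38 ± 0.11 (adjusted p = 0.140). PRELP at 24h gave -0.99 ± 0.41 (adjusted p = 0.999), and it was the only member under an unadjusted 0.05 at 24h, as were 512 genes. An exact two-sided permutation test of the shares themselves cannot go below p = 0.1 with 3 libraries against 3, and after adjustment over the 14 tests made (7 members at 3h and 24h) the lowest p was 0.467.

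The share of PRELP reads with a conversion went from 24.8% ± 6.31 at 0h to 18.9% ± 2.52 at 3h and 14.6% ± 1.38 at 24h (SD, n = 3). All 3 cultures were lower at 24h than at 0h. The 0h spread came from S9CC47_R5, with 32.1% (Wilson 95% interval 26.9% to 37.9%) against 21.3% and 21.1% in the other two cultures. By contrast, DCN went from 21.9% ± 1.98 to 21.2% ± 0.752 and LUM from 23.4% ± 1.04 to 23.1% ± 1.93 between 0h and 24h, both within the spread. Whole libraries had shares of 15.9% to 21.3%.

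BGN stood apart in its share at every time. At 0h 2.93% ± 0.470 of its reads were T>C reads, against 15.3% to 25.0% for the other 6 tested members, and only 0.167% of the tested genes had a lower share. Its share was 3.54% ± 0.497 at 3h and 3.44% ± 0.0377 at 24h. A read can show a conversion only where the transcript has a T, and the last 250 bases of the annotated BGN transcript were 20.0% T, against 25.2% to 41.6% in the other 6 and a median of 32.0% over all genes with a value. Only 6.09% of genes had a lower T content than BGN. Over 11129 genes, which are not independent replicates, the share at 0h and the T content had a Spearman correlation of 0.38. The part of T content in the low share of BGN was not tested. A consequence for precision is that 10375 to 15183 total BGN reads at 24h came with 360 to 524 T>C reads.

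**Figure D3:**
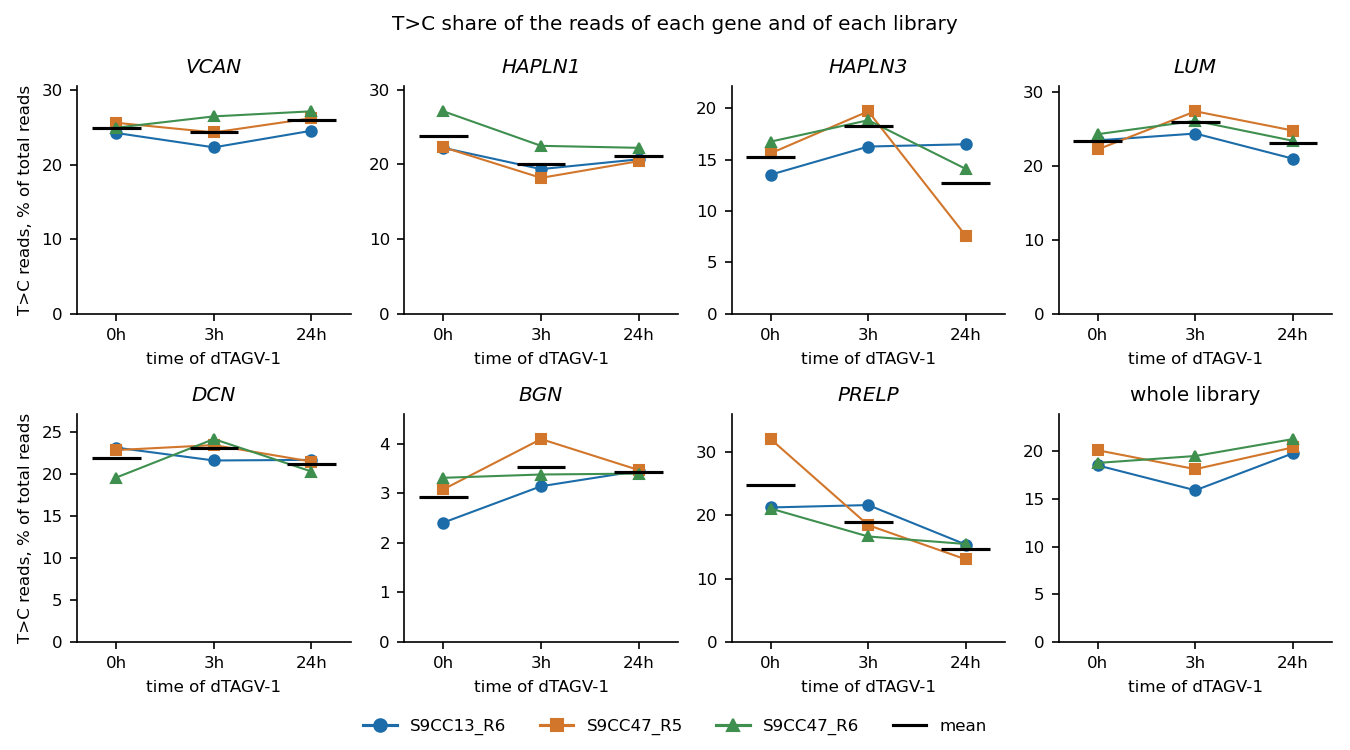
Percent of reads with a T>C conversion (vertical axis, from 0, own scale per panel) for the 7 tested members and for whole libraries at 0h, 3h and 24h (horizontal axis, not to scale). Lines join the libraries of 1 culture and black bars are means of 3. BGN stays between 2.41% and 4.10% while PRELP moves from a mean of 24.8% to 14.6%.

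**Figure D4:**
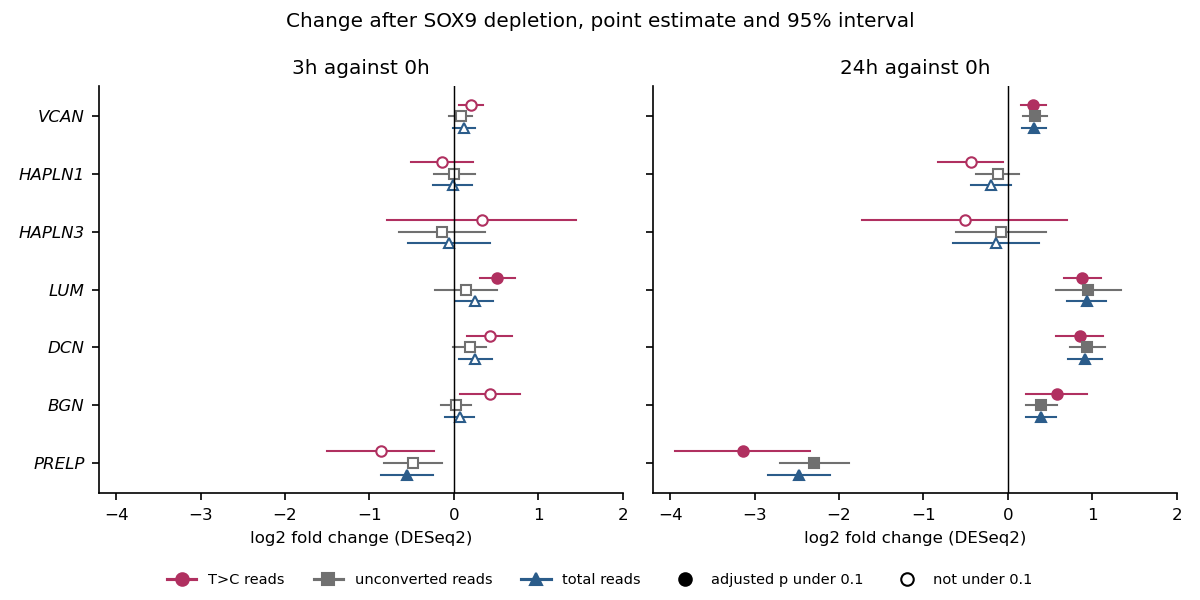
Log2 fold changes (horizontal axis) with 95% intervals for the 7 tested members in T>C, unconverted and total reads, at 3h and 24h against 0h, from DESeq2. Filled symbols passed an adjusted p of 0.1. At 24h the 3 measures lie on the same side of 0 for each called member, with PRELP at -3.14, -2.29 and -2.47, and at 3h the filled symbols are LUM in T>C reads and PRELP in total reads.

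Cultures were compared by their levels at each time, with 1 library on each side and so without a test. No member differed at least 2-fold in 1 direction at all 3 times between S9CC13_R6 and S9CC47_R6 (2 clones in the same batch), where 0.205% of genes did, or between S9CC47_R5 and S9CC47_R6 (2 batches of the same clone), where 0.273% did. DCN was lower in S9CC47_R5 than in S9CC47_R6 at all 3 times, by 1.13-, 1.75- and 1.65-fold. LUM changed sides: at 0h S9CC47_R5 was 1.68-fold higher than S9CC47_R6, and afterwards it was 1.40-fold (3h) and 1.49-fold (24h) lower.

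Other genes of the same matrix were read as lists. Of 14 other cartilage matrix genes 8 were tested, and 4 were lower at 24h in both T>C and total reads while none was higher, with a median log2 fold change of -0.95 in T>C reads against 0.00 for all genes. COL2A1, the main fibrillar collagen of cartilage, had 320 ± 16.2 total CPM at 0h and 182 ± 26.1 at 24h, with a T>C log2 fold change of -1.10 ± 0.13 (DESeq2 adjusted p = 8.73e-14). COL9A1 and COL11A1, which encode collagens of the same fibrils, gave -1.07 ± 0.33 (adjusted p = 0.0316) and -0.43 ± 0.13 (adjusted p = 0.0270). MIA, which encodes a small protein secreted by chondrocytes, gave -3.02 ± 1.07 in T>C reads (adjusted p = 0.0977, from a mean of 6.62 normalized reads) and -2.76 ± 0.28 in total reads (adjusted p = 4.14e-20). Among these 8, none was called at 3h in either measure.

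The other lists were tested in the same way. In T>C reads at 24h none of 2 tested relatives of aggrecan, link protein and matrilin (of 7), 2 tested leucine-rich matrix proteins (of 13, 12 of them counted), 18 tested proteoglycan core proteins (of 21) and 5 tested genes of hyaluronan turnover (of 10) was called. In total reads at 24h, 4 of the 18 core proteins were higher and 3 lower, beside 15.0% of all genes called. The cell-surface heparan sulfate carriers SDC2, GPC2, GPC4 and GPC6 rose, by 0.46 ± 0.12, 0.28 ± 0.12, 0.25 ± 0.09 and 0.38 ± 0.13 on the log2 scale (DESeq2 adjusted p = 0.00190, 0.0989, 0.0420 and 0.0383). SDC3 gave -0.43 ± 0.11 (adjusted p = 0.00413), HSPG2, the basement membrane proteoglycan perlecan, -0.43 ± 0.12 (adjusted p = 0.00412), and CSPG4 -0.63 ± 0.24 (adjusted p = 0.0741). HYAL2, a hyaluronidase, was the one hyaluronan gene called in total reads at 24h (0.30 ± 0.11, adjusted p = 0.0541). GPC3 was lower in T>C reads at 24h than at 3h (-0.54 ± 0.14, adjusted p = 0.0202).

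Markers of other cell types moved with some of these results. The 5 fibroblast markers, which include DCN and LUM, summed to 408 to 510 total CPM at 0h, 407 to 601 at 3h and 659 to 981 at 24h, a sum that holds these members themselves. Without DCN and LUM the other 3 (COL1A1, COL3A1 and PDGFRA) summed to 132 to 142 at 0h, 101 to 144 at 3h and 140 to 184 at 24h. COL1A1, which encodes the main collagen of fibroblasts, was called higher at 24h (T>C log2 fold change 1.11 ± 0.34, DESeq2 adjusted p = 0.0378). PDGFRA, of the same list, was lower at 3h in total reads (-0.32 ± 0.10, adjusted p = 0.0512) and gave -0.21 ± 0.10 at 24h (adjusted p = 0.162). The 6 chondrocyte markers, which include ACAN, summed to 340 to 372 at 0h and 172 to 225 at 24h, 4 of them lay under the filter, and COL2A1 and COL9A1 fell. The 10 neural crest markers summed to 3286 to 3327 at 0h and 4274 to 4622 at 24h. MSX1 rose most, with means of 625 and 1457, whereas NR2F1 (1064 and 1056) and NR2F2 (479 and 486) changed little. At 24h 4 of the 10 were called higher in T>C reads (TFAP2A, TFAP2B, TWIST1 and MSX1), beside 2.38% of all genes. TFAP2A, TWIST1, MSX1 and PRRX1 (0.40 ± 0.11, DESeq2 adjusted p = 0.0038) were called higher in total reads, beside 7.11%. SNAI2 was lower in total reads at 3h (-0.50 ± 0.16, adjusted p = 0.0937) and higher at 24h than at 3h (0.56 ± 0.18, adjusted p = 0.0438). The 5 pluripotent stem cell markers summed to 350 to 414 at 0h and 281 to 306 at 24h. This sum was nearly all LIN28A (mean 337 at 0h) and DPPA4 (36.2), whereas POU5F1, NANOG and TDGF1 lay under the filter. At 0h POU5F1 had no read and NANOG a mean of 0.0584, and TDGF1 was at 0 in all libraries. LIN28A was lower at 24h (T>C log2 fold change -0.35 ± 0.09, adjusted p = 0.00706). The 5 neural progenitor markers, with SOX1 at 0, summed to 375 to 431 at 0h and 336 to 469 at 24h, and none was called. NES made up nearly all of this sum (mean 407 at 0h), and the other 4 lay under the filter in total reads. Markers of smooth muscle (4) and of osteoblasts (4 of 5 counted) summed to 22.1 to 24.7 and 12.1 to 12.5 at 0h and 18.4 to 24.4 and 10.5 to 14.8 at 24h, with no call. The part of these cell types in the members' changes was not tested.

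Genes with a pattern most like that of a called member were found by Pearson correlation of log2(normalized T>C reads + 1) over the 9 libraries, among 8676 genes with a mean of at least 50 reads. The 9 points share 3 cultures and 3 times, and the values are a description. PRELP was closest to RGMA (r = 0.974), COL2A1 (0.974) and CCDC88C (0.971), all 3 lower at 24h. LUM was closest to SPARC (0.989), ACKR3 (0.988) and LYPD6 (0.982), of which ACKR3 and LYPD6 were called higher at 24h. DCN was closest to PAX3 (0.946), LEF1 (0.946) and WEE1 (0.933), of which PAX3 was called higher. VCAN was closest to PDE8A (0.953), WDR19 (0.951) and WDR7 (0.931), and BGN to KCMF1 (0.930), UPF1 (0.917) and MAP6D1 (0.885), none of them called at 24h.

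Members lie in 4 neighbouring pairs with 0 protein-coding genes between them, and their values were read pair by pair. In the LUM and DCN pair on chromosome 12 both members rose at 24h, by 0.88 ± 0.11 and 0.85 ± 0.14 in T>C reads. In the FMOD and PRELP pair on chromosome 1 (124048 bp apart) FMOD had 0 to 3 reads per library, whereas PRELP had 46 to 583. In the VCAN and HAPLN1 pair on chromosome 5 VCAN rose and HAPLN1 was not called, and in the ACAN and HAPLN3 pair on chromosome 15 HAPLN3 was not called and ACAN was not tested. OPTC, a leucine-rich matrix gene 2801 bp beyond PRELP, was one of the list members under the filter.

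**Figure D5:**
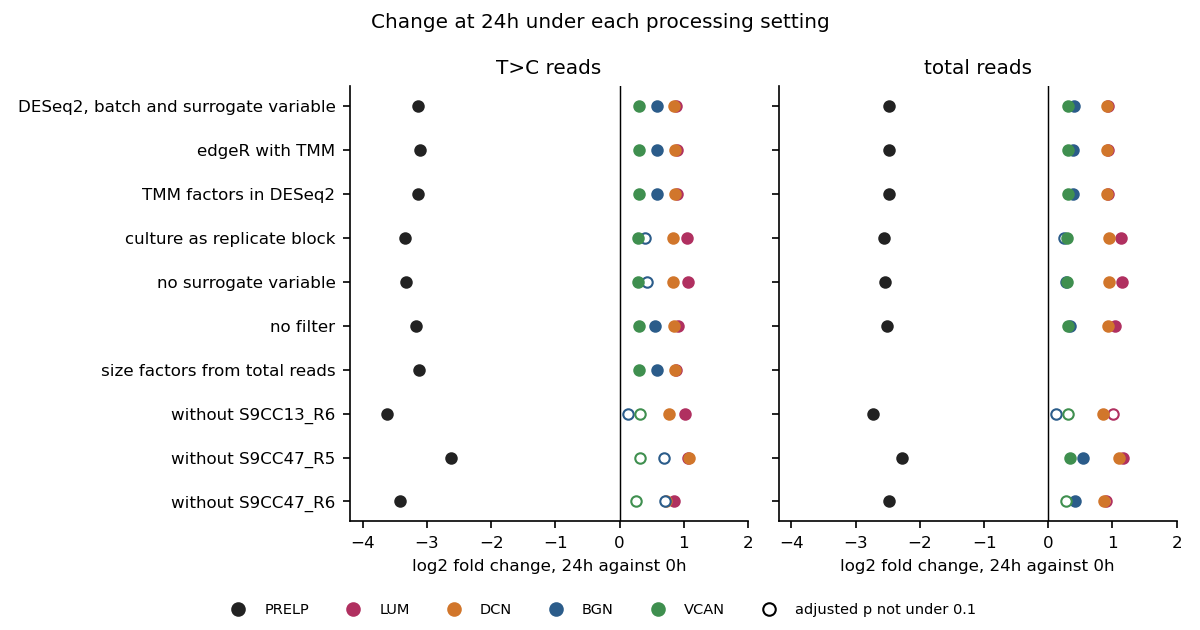
Log2 fold changes at 24h against 0h (horizontal axis) of the 5 called members under each processing setting (vertical axis), for T>C reads and total reads. Open symbols did not pass an adjusted p of 0.1. PRELP and DCN are filled in every setting of both measures and LUM in every setting of T>C reads, whereas BGN is open with the culture as a replicate block and without the surrogate variable.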

How the data were processed

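SLAM-seq libraries (QuantSeq 3′ FWD) of 9 samples were analysed. The authors deposited raw read counts per gene symbol in 2 tables, total reads and T>C reads, with 9 columns each. By their methods, read 1 was trimmed with skewer and of poly(A), mapped and counted with slamdunk, and merged per gene; the study uses hg38, and the counted regions and use of strand are not given in the sources used here. Samples were grouped by time from their titles. Gene types and coordinates came from GENCODE release 44, matched by symbol, with 18451 of 18970 symbols matching directly, 11 and 390 through RefSeq symbols and synonyms, and 118 not at all.

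All 9 samples were fitted together for each measure in DESeq2 1.42.0 (R 4.3.3). The terms were time, batch of differentiation and 1 surrogate variable from svaseq (sva 3.50.0). Tests covered protein-coding genes that reached 1 CPM (counts over the library total) in 3 samples, without independent filtering. Calls are Wald tests with Benjamini-Hochberg adjusted p under 0.1 over all genes tested. Unconverted reads are total minus T>C reads. The T>C share was tested by the interaction of read class and time in DESeq2. Scripts were tested on simulated data. Other settings were edgeR 4.0.16 (quasi-likelihood, TMM), TMM factors in DESeq2, a replicate block, no surrogate variable, no filter (all genes with a count), size factors from total reads, and each culture left out, with batch alone where no surrogate variable could be estimated. That was so for T>C reads without S9CC13_R6, and for total reads without S9CC13_R6 and without S9CC47_R6. A call lost in these fits cannot be put down to the culture alone. Replicate numbers pair samples because titles give the same clone and batch, and same-culture deviations correlated on average at 0.18 in T>C and 0.26 in total reads over 9 pairs of samples (lowest -0.13 and -0.16). Each culture was sampled at all 3 times, but the main fit has no term for the culture. Its p-values measure the spread between libraries that is left after batch and the surrogate variable. They do not measure how even a change is across cultures, and the 2 contrasts against 0h share their controls.

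The members and lists were chosen with earlier results of these data known. The result of 1 marker list is not reported here. All 10 members are named. Of the lists reported, the genes called in T>C or total reads are named, and for each called member the 3 most similar genes. Reads carry no stated molecular identifiers, so intervals and floors cover counting error only.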

Additional observations from a re-analysis of the deposited data

Results flagged for a closer look

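For 4 members, differences between the effects at 24h and at 3h, which use the same 0h libraries, passed DESeq2's test of 24h against 3h itself. PRELP was lower at 24h than at 3h by a log2 fold change of -2.27 ± 0.45 in T>C reads and of -1.92 ± 0.20 in total reads. In total reads DCN (0.66 ± 0.11), LUM (0.69 ± 0.13) and BGN (0.33 ± 0.10) were higher at 24h than at 3h. Values were higher at 24h than at 3h in all 3 cultures for each of these 3 genes, and lower in all 3 for PRELP. The BGN differences within cultures were small, at 0.13, 0.0084 and 0.22 on the log2 scale. With the culture as a replicate block BGN gave 0.12 and was not called (DESeq2 adjusted p = 0.607), and the call was also lost without the surrogate variable (0.12), without S9CC13_R6 (0.11) and without S9CC47_R6 (0.075). The call of LUM was lost without S9CC13_R6 (0.84, adjusted p = 0.816), and that of PRELP in T>C reads without S9CC47_R5 (-1.92, adjusted p = 0.252).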

How the results depend on the processing

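PRELP, DCN and LUM in T>C reads, and PRELP and DCN in total reads, were called at 24h against 0h under all alternatives run (9 with T>C reads, 8 with total reads). Over 413 values of members under an alternative, 346 kept direction and call, 33 lost the call, 16 gained it and 18 changed sign. None of the 18 was a called value, and the cause was not tested.

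With the culture as a replicate block, 530 genes instead of 137 and 3 members instead of 1 were called in T>C reads at 24h against 3h, 141 instead of 221 genes and 0 members in total reads at 3h, and 1546 instead of 631 genes in total reads at 24h against 3h. Values that changed sign there were BGN in T>C reads at 24h against 3h (-0.12), HAPLN3 in total reads at 3h (0.054) and HAPLN1 in total reads at 24h against 3h (0.059). Block changes of members' calls stand beside each result, and no other call of a member changed. Without the surrogate variable, 0 members were called in T>C reads at 3h, 373 genes and 2 members in T>C reads at 24h against 3h, and 118 genes and 0 members in total reads at 3h. The same 3 values changed sign (-0.12, 0.093 and 0.044). edgeR called 968 genes in T>C reads at 24h, 267 at 24h against 3h, and 3 members both in that contrast and at 3h. TMM factors called 2 members in T>C reads at 3h. No filter and size factors from total reads each called 2 members in T>C reads at 24h against 3h. The exact permutation test of the T>C share cannot go below p = 0.1, so its 0 members called at 3h were fixed by the design and say nothing on stability. Its VCAN values had the opposite sign (-0.033 at 3h and 0.059 at 24h). This test takes the share as it stands and not relative to all genes, and the share of whole libraries differed from 0h by -1.29 points at 3h and 1.36 at 24h.

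Leaving out 1 culture, which leaves 2 samples per group, lowered most counts. The fits named above without an estimated surrogate variable differed from the main fit in that term too. T>C reads gave 48 to 90 genes (0 to 2 members) at 3h, 93 to 259 (3 members each time) at 24h and 35 to 83 (0 to 2 members) at 24h against 3h. Total reads gave 35 to 155 (0 to 2 members), 305 to 788 (2 to 5) and 123 to 833 (2 to 4). The T>C share gave 8 to 31 genes (0 to 1 members) at 3h and 0 to 3 genes at 24h. Sign changes lay in these ranges: at 24h against 3h, T>C reads of BGN -0.20 to 0.41 and HAPLN1 -0.30 to 0.045, and total reads of HAPLN1 -0.15 to 0.14 and HAPLN3 -0.44 to 0.0088. In total reads at 3h the ranges were HAPLN1 -0.33 to 0.074, HAPLN3 -0.19 to 0.51 and LUM -0.19 to 0.41. In total reads at 24h HAPLN3 gave -0.56 to 0.069, and the BGN share gave -0.015 to 0.29. Depth limits ACAN, MATN3, FMOD and the T>C reads of HAPLN3 and, at 24h, PRELP.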
